A study of Mus musculus and Rattus norvegicus with 6 samples.

Results

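Serpins are a family of proteins that share 1 fold and, for the most part, inhibit serine proteases. The Serpin genes were taken here as all probe sets of the mouse and rat liver arrays whose single annotated gene symbol begins with Serpin. In mice this gave 56 of 45037 probe sets, which stand for 40 of 18193 genes, and in rats 38 of 31042 probe sets and 33 of 14217 genes. The rule reads symbols and no measured value, but the family was picked for description with earlier results of these data known.

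The samples were livers of male animals aged 20 weeks, taken 6 h after an intraperitoneal injection, with 1 array in each of 6 groups. The mouse groups, of C57/BL6J background, were Lepob/Lepob given leptin, Lepob/Lepob given saline and WT given saline. The rat groups, of F344/NSlc background, were Lepmkyo/Lepmkyo given leptin, Lepmkyo/Lepmkyo given saline and WT given saline. Both mutants lack working leptin, the satiety hormone of adipose tissue; no WT animal received leptin, and the WT animals were littermates of the mutants. The sampling time was chosen to precede changes in food intake and body weight, per the design text, which gives the leptin dose as 1 microg/mg without saying of what. The labels of the mutant rats disagree: their titles and genotype fields read Lepmyo/Lepmkyo and their source fields Lepob/Lepob, while the descriptions and the design text give Lepmkyo/Lepmkyo, which was followed.

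An inhibitory serpin offers a protease an exposed loop as bait; once the loop is cut, the serpin changes shape and locks the protease to itself, so that each molecule works once. Hepatocytes secrete most of the serpins of plasma, among them antitrypsin, antithrombin, heparin cofactor II, alpha-2-antiplasmin and C1 inhibitor, which restrain proteases of neutrophils, clotting, fibrinolysis and complement. Some members do not inhibit: Serpina6 and Serpina7 carry corticosteroids and thyroid hormone in blood, and Serpinh1 is a chaperone of collagen in the endoplasmic reticulum. Clade B serpins lack a classical secretion signal, mostly stay inside the cell and protect it from its own or foreign proteases, such as the granzymes and cathepsins of leukocytes.

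Promoter windows of 7 mouse genes are shown because the signals of these genes carry the results that follow. Serpina1b and Serpina1c were the brightest members, Serpina7 and Serpinb6a were at least 2-fold higher in the mutant, Serpinf2 was at least 2-fold lower, and Serpina11 and Serpina12 were just under 2-fold lower. The windows hold the 250 bases before the annotated transcription start, from RefSeq (build GRCm38.p6, each on the minus strand and written in the direction of transcription). Capitals mark matches on either strand to GTTAAT, a half-site of hepatocyte nuclear factor 1, to TTCNNNGAA, the core of STAT factor sites, or to AGGTCA, a half-site of nuclear receptors.
Serpina1b, chr12:103738190-103738439: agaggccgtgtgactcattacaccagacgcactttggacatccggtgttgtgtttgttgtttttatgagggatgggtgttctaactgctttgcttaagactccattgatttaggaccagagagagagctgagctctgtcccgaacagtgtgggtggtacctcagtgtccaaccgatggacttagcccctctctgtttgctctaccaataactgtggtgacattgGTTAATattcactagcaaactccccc
Serpina1c, chr12:103904951-103905200: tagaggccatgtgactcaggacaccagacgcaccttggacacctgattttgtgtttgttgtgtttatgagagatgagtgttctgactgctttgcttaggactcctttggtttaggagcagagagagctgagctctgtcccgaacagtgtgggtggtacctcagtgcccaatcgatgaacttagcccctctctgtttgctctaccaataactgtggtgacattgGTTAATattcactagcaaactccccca
Serpina7, chrX:139085237-139085486: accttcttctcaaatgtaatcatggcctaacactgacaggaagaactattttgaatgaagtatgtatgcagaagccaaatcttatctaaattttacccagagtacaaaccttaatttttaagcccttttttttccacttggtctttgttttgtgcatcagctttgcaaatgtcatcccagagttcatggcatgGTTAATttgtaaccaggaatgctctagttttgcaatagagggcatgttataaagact
Serpina11, chr12:103989958-103990207: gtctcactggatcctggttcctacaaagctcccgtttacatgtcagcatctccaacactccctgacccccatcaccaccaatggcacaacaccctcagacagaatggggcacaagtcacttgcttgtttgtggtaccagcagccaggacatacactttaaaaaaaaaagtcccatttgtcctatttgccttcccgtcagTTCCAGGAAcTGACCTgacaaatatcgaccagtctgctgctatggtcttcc
Serpina12, chr12:104044444-104044693: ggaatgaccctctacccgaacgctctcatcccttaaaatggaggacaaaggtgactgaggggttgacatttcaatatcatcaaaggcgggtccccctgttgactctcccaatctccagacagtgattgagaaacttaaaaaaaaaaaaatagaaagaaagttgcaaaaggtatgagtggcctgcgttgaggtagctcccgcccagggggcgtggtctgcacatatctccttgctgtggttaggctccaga
Serpinf2, chr11:75439502-75439751: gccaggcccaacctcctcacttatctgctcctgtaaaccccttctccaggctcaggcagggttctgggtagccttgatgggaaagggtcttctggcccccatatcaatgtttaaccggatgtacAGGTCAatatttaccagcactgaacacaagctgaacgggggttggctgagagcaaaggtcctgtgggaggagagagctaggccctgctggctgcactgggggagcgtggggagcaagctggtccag
Serpinb6a, chr13:34002795-34003044: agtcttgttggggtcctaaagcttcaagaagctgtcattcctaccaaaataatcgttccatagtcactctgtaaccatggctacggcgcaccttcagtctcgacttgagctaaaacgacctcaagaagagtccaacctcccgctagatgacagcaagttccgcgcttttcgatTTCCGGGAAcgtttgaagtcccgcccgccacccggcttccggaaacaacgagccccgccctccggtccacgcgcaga

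Both antitrypsin genes and Serpina7 held GTTAAT close to the start, with its first base 26 bases upstream in Serpina1b, 27 in Serpina1c and 57 in Serpina7. The Serpina11 window held the STAT core and, directly beyond 1 further base, the nuclear receptor half-site in the opposite orientation, at 51 and 41 bases upstream. Serpinf2 held the nuclear receptor half-site at 126 bases and Serpinb6a the STAT core at 77, while the Serpina12 window held none of these letters. Of the 23 mouse Serpin genes measured, 17 matched a promoter, all but Serpina10, Serpina4-ps1, Serpina6, Serpina9, Serpinb1a and Serping1. GTTAAT stood in 4 of these 17 and in 6.54% of the windows of 27025 genes, TTCNNNGAA in 2 and in 7.14%, and AGGTCA in 4 and in 13.8%. These counts describe letters in a window, not binding. The windows of the copies Serpina1a to Serpina1e were 91.4% to 97.0% identical to each other over 189 to 250 aligned bases, and array probes of this group can likewise bind several copies.

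The deposited values were linear MAS5 signals with a similar trimmed mean on all arrays, 495.3 to 495.7 in mice and 495.6 to 496.4 in rats, although the mouse medians were 79.1 and 77.0 on the mutant arrays, with leptin and with saline, and 91.9 on the WT array. A signal floor was set at the middle value of each platform's 3 arrays, 82.7 for the mouse and 97.0 for the rat arrays. Each gene was read from its brightest probe set, counted as measured when an array reached the floor, and counted as higher or lower at 2-fold. With 1 array in each group there was no spread between animals, no test and no p-value, so every difference is a difference between a pair of arrays. The only error that could be measured was that between probe sets of the same gene: their log2 ratios differed with an SD of 0.45 for mutant over WT and 0.26 for leptin over saline in mice (5333 and 5021 genes), and of 0.44 and 0.25 in rats (2397 and 2243 genes).

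The floor was reached on at least 1 array by 23 of the 40 Serpin genes in mice and by 23 of the 33 in rats, and 16 symbols were measured in both. The 17 mouse genes under it on all 3 arrays, none above 77.3, were Serpina1f, Serpina3a, Serpina3i, Serpina5, Serpinb1b, Serpinb2, Serpinb3a, Serpinb5, Serpinb6c, Serpinb7, Serpinb9c, Serpinb9d, Serpinb9g, Serpinb11, Serpinb12, Serpini1 and Serpini2. The 10 rat genes, none above 78.7, were Serpina12, Serpinb2, Serpinb3, Serpinb7, Serpinb10, Serpinb11, Serpinb12, Serpine3, Serpini1 and Serpini2. The neuroserpin group (Serpini1, Serpini2) was thus under the floor in both species. In the mouse gene order of GRCm38.p6, the clade B genes form 2 clusters. In the cluster of Serpinb2, 1 of 7 genes on the array, Serpinb8, was measured, against 6 of 11 in the cluster of Serpinb9. The clade A genes other than Serpina7, which lies on the X chromosome, neighbour each other in 1 cluster, with 9 of 13 genes on the array measured.

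In mice, the saline-treated mutant had lower signals of most liver-secreted serpins than WT and higher signals of most clade B serpins. Of the 23 genes measured, 3 were at least 2-fold higher (Serpina7, Serpinb1a, Serpinb6a), beside 4.46% of all 11956 genes measured, and 2 were at least 2-fold lower (Serpina4-ps1, Serpinf2), beside 3.71%. Ratios were below 0 for 16 Serpin genes and above 0 for 7, with a median log2 ratio of -0.33; over all genes 52.5% were below 0, 47.4% above it, and the median was -0.03. At 1.5-fold, 5 Serpin genes were higher, beside 12.3% of all genes, and 4 lower, beside 12.6%. The 15 secreted genes of clades A, C, D, F and G are a pool formed after the values were seen. Of these, 13 were below 0, with a median of -0.39. Of 7 clade B genes, 5 were above 0, with a median of 0.90. Serpina9 and Serpinb9b reached the floor in WT alone, so their ratios could only be below 0. With the floor at the 75th percentile, which left out both, 12 of 14 secreted genes and 1 of 3 clade B genes were below 0. Centring each array on its median moved the median of all mouse genes to 0.22 and that of the secreted genes to -0.14, with 11 of 15 below 0. After quantile normalization these medians were 0.04 and -0.26, with 13 of 15 below 0.

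**Figure D1:**
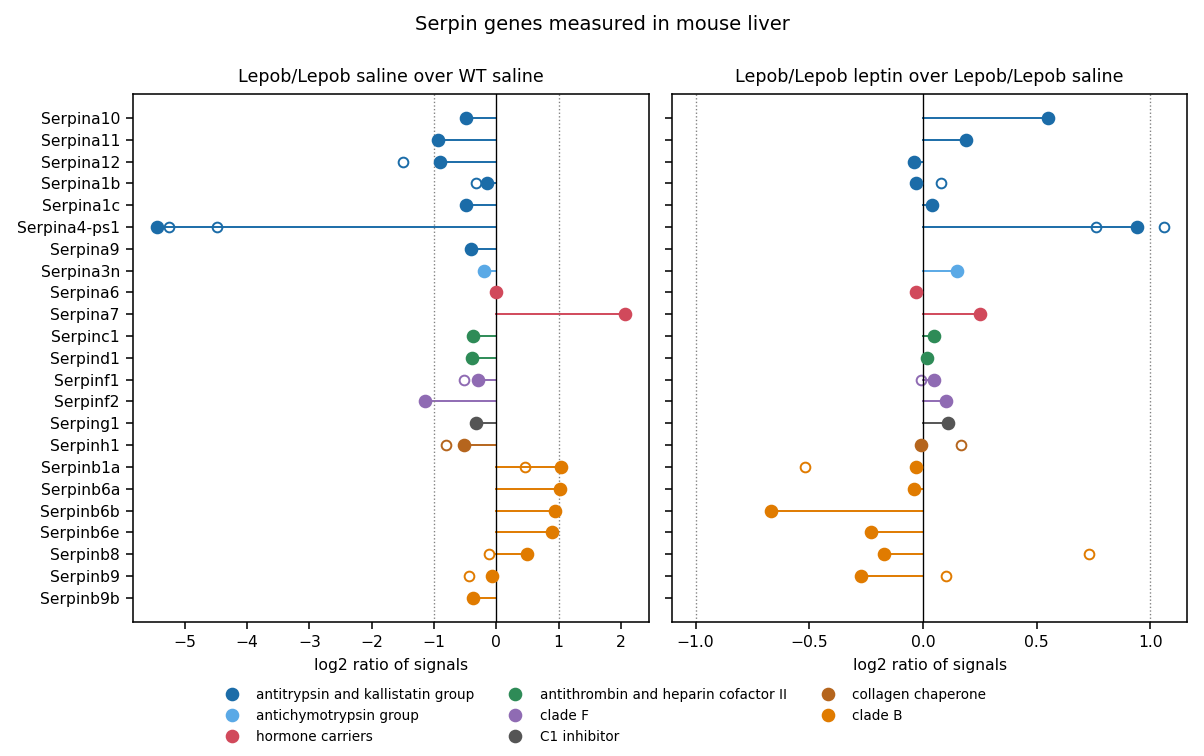
Log2 ratios of MAS5 signals for the 23 Serpin genes measured in mouse liver, for Lepob/Lepob saline over WT saline (left) and Lepob/Lepob leptin over Lepob/Lepob saline (right, on its own scale). Filled points are the brightest probe set of a gene, open points its other probe sets, colours the roles, and dotted lines 2-fold; ratios of Serpina9 and Serpinb9b are lower bounds of the difference. Serpina4-ps1 lies at -5.45 and Serpina7 at 2.07 on the left, and on the right no filled point reaches 2-fold.

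Serpina4-ps1, a transcribed pseudogene of the kallistatin gene, differed most between mutant and WT among the members. Its brightest probe set read 548 in Lepob/Lepob given leptin, 286 in Lepob/Lepob given saline and 12475 in WT, a signal 43.6-fold lower in the saline-treated mutant than in WT (log2 ratio -5.45). Its other probe sets read 699, 411 and 9152 (log2 ratio -4.48) and 265, 127 and 4839.6 (-5.25) in the same order of groups. The 3 probe sets stand for 1 transcript and are no replicates of the animals, but each was high in WT and low in both mutants. Of a list of male-predominant liver genes and genes of growth hormone signalling, such as Ghr and Stat5b, 13 were measured in these mice. All 13 were lower in the mutant, 8 of them at least 2-fold, with a median log2 ratio of -2.85. Hsd3b5 (at or below -7.65), Slco1a1 (-6.93) and Cyp7b1 (-5.43) led, and Igf1 (-0.46), Ghr (-0.28) and Bcl6 (-0.04) differed least. Hsd3b5 and Moxd1 were under the floor in both mutants, so their ratios could only be below 0. A part of growth hormone in the values of Serpina4-ps1 was not tested.

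The antitrypsins, inhibitors of neutrophil elastase, were the brightest serpins, and their mutant signals were slightly below the WT signals. Serpina1b read 48559.7 in Lepob/Lepob given leptin, 49447 in Lepob/Lepob given saline and 54946 in WT (log2 ratio of saline-treated mutant over WT -0.15), and its other probe set gave -0.33. Serpina1c read 39961, 38851 and 54638 in that order (log2 ratio -0.49). Both differences are near the spread between probe sets, and that of Serpina1b turned above 0 after quantile normalization and after centring on the median. A probe set annotated to Serpina1b, Serpina1c and Serpina1e together, left out here for its several symbols, gave a lower log2 ratio, -1.48.

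The other members of this group were also lower in the mutant given saline than in WT. Serpina12, vaspin, an adipokine that inhibits kallikrein 7, read 3936 in Lepob/Lepob given leptin, 4038 in Lepob/Lepob given saline and 7571 in WT, a 1.88-fold lower signal in the saline-treated mutant (log2 ratio -0.91). Its dimmer probe set read 59.1, 82.0 and 233, with both mutant arrays under the floor (log2 ratio at most -1.50). Serpina11 read 1703, 1492 and 2869, a 1.92-fold lower signal in the saline-treated mutant (log2 ratio -0.94). Serpina10, the protein Z-dependent inhibitor of clotting factor Xa, differed from these genes in that its leptin-treated mutant was at the level of WT: it read 12977 in Lepob/Lepob given leptin, 8848 in Lepob/Lepob given saline and 12386 in WT. Serpina9, known from germinal-centre B cells, reached the floor in WT alone, with 4.5, 33.9 and 109, a signal at least 1.32-fold lower in the saline-treated mutant. The antichymotrypsin-like Serpina3n read 3393, 3054 and 3506, a log2 ratio of -0.20, which was above 0 after centring on the median.

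The hormone carriers went apart. Serpina7, thyroxine-binding globulin, read 7729 in Lepob/Lepob given leptin, 6488 in Lepob/Lepob given saline and 1543 in WT. It was 4.20-fold higher in the saline-treated mutant than in WT (log2 ratio 2.07) and the highest ratio of all mouse Serpin genes, with 1 probe set and a range of 2.01 to 2.33 over the alternatives tried. Serpina6, corticosteroid-binding globulin, read 4344, 4443 and 4428, a log2 ratio of 0.00. Of 12 genes related to these hormones (receptors, targets, converting enzymes and the carrier Ttr), 4 were above 0 and 8 below, with a median of -0.18. The 3 with the largest ratios were glucocorticoid-inducible genes: Fkbp5, at a log2 ratio of 1.32, Per1, at 1.16, and Sgk1, at 1.06. Tat, a glucocorticoid target too, was at -0.31, and the receptor gene Nr3c1 at -0.22. The genes related to thyroid hormone were all below 0, with Dio1 at -0.65, Ttr at -0.36 and Thra at -0.13. Thrb was at -0.67 or below, its signal in the saline-treated mutant being under the floor.

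Among the inhibitors of clotting and fibrinolysis, alpha-2-antiplasmin stood out. Serpinf2, which encodes it and so restrains plasmin, read 7839 in Lepob/Lepob given leptin, 7324 in Lepob/Lepob given saline and 16307 in WT, a 2.23-fold lower signal in the saline-treated mutant (log2 ratio -1.15). Serpinc1, antithrombin, read 34378, 33228 and 42836 (log2 ratio -0.37), and Serpind1, heparin cofactor II, 10461, 10349 and 13597 (-0.39). Both were lower in each mutant than in WT by less than 1.5-fold. Of 13 measured protease genes and cofactors of clotting and fibrinolysis, 9 were likewise below 0, with a median of -0.41, led by F11, at -2.20, and Klkb1, at -0.76, whereas Plat, tissue plasminogen activator, was at 0.93 or above, its WT signal being under the floor.

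C1 inhibitor, Serping1, which blocks the first complement proteases and plasma kallikrein, read 22985 in Lepob/Lepob given leptin, 21264 in Lepob/Lepob given saline and 26806 in WT (log2 ratio -0.33). Of 7 complement genes of its pathway, 5 were below 0, with a median of -0.25 and C1ra, at -1.18, lowest. Serpinf1, the pigment epithelium-derived factor, which does not inhibit proteases, read 18471, 17895 and 22077 (log2 ratio -0.30; -0.52 on another probe set). The collagen chaperone Serpinh1 read 388, 391 and 561 (log2 ratio -0.52; -0.80 on another probe set). Serpinh1 was thus lower in both mutants than in WT. Of measured collagens and collagen-modifying enzymes, 9 of 13 were above 0, with a median of 0.32 and Col1a2 at 0.86. Col1a1, under the floor in WT, could only be above 0. The enzymes among them did not go with the collagens: P4ha1 was at -0.35, P4ha2 at -0.32, P4hb at -0.01 and Plod1 at 0.07.

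Clade B went the other way for 5 of its 7 measured genes. Serpinb1a, an inhibitor of neutrophil proteases, read 688 in Lepob/Lepob given leptin, 704 in Lepob/Lepob given saline and 343 in WT, a 2.05-fold higher signal in the saline-treated mutant (log2 ratio 1.04). Its dimmer probe set read 109.7, 158 and 115 and gave 0.46. Serpinb6a, whose human counterpart inhibits cathepsin G, read 1306, 1339.7 and 659, 2.03-fold higher in the saline-treated mutant (log2 ratio 1.02). Both genes lie close to the 2-fold limit, and so do their relatives just inside 2-fold. Serpinb6b read 225, 358 and 187 (log2 ratio 0.94), and Serpinb6e 162, 189 and 102 (0.90).

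The remaining clade B genes had small or unclear differences between the saline-treated mutant and WT. Serpinb8 read 128 in Lepob/Lepob given leptin, 144 in Lepob/Lepob given saline and 103 in WT (log2 ratio 0.49; -0.11 on another probe set). Serpinb9, an inhibitor of granzyme B, read 384, 463 and 485 (-0.07; -0.43 on another probe set), above 0 after centring on the median. Serpinb9b reached the floor in WT alone, with 64.9, 62.4 and 108, at least 1.30-fold lower in the saline-treated mutant. In the cluster they share, the neighbours Serpinb9 and Serpinb9b thus did not go with the Serpinb6 genes and Serpinb1a. Of 7 caspase, cathepsin and perforin genes measured, 5 were above 0, with a median of 0.38 and Ctsk, at 1.06, highest. No granzyme had a ratio: Gzma was under the floor on both arrays compared, and Gzmb and Gzmk on all 3 arrays. The neutrophil and mast cell proteases Elane, Ctsg, Cma1, Mcpt4 and Tpsb2 were under the floor on all 3 arrays too.

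**Figure D2:**
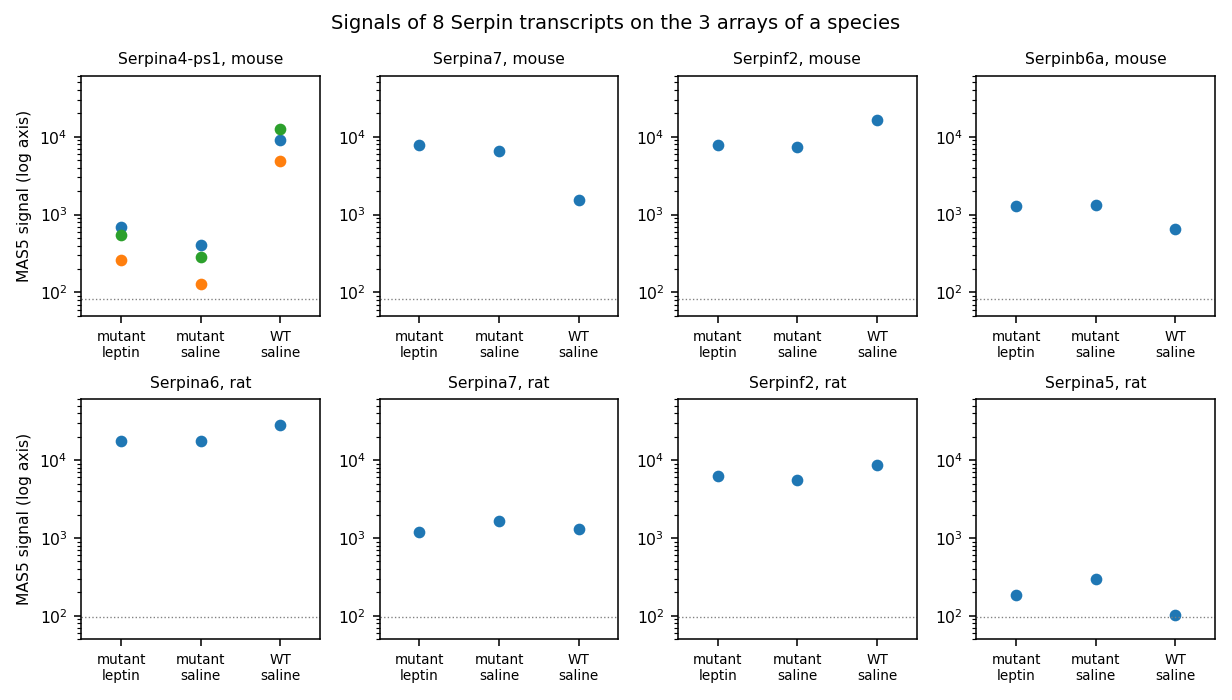
MAS5 signals (log axis) of 4 mouse transcripts (top) and 4 rat transcripts (bottom) on the 3 arrays of each species: mutant given leptin, mutant given saline and WT given saline. Each point is 1 probe set on 1 array, colours within a panel mark probe sets, and the dotted line is the signal floor; Serpina4-ps1 has 3 probe sets, each low in both mutants, and rat Serpina5 lies close to the floor in WT.

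Markers of liver cell types also differed between the arrays. Of 12 hepatocyte markers measured in mice, 11 were below 0 in the saline-treated mutant against WT, with a median of -0.38, close to that of the secreted serpins, and their summed signal was 392326 in Lepob/Lepob given leptin, 384480.1 in Lepob/Lepob given saline and 497415 in WT. Of 14 macrophage markers, 12 were above 0, 5 of them at least 2-fold, with a median of 0.58 and sums of 33854, 36415 and 24219. Of 12 stellate cell and fibroblast markers, 9 were above 0, with a median of 0.48 and sums of 25449, 24952 and 15966. Gpnmb of the macrophage list and Timp1 and Col1a1 of the stellate cell list were under the floor in WT, so their ratios could only be above 0. Endothelial markers were above 0 for 7 of 9, with sums of 10095, 10464 and 8078. Neutrophil markers summed to 2073, 889.8 and 729.8 with Elane under the floor, and those of lymphocytes and NK cells to 461, 501 and 572 with Cd3d, Cd3e, Cd3g, Cd79a and Nkg7 under it. The part of these cell types in the serpin values was not tested, and in whole liver fewer cells of a type and less RNA per cell cannot be told apart. The 8 mouse Serpin genes with a mean signal of at least 10000, a minimum chosen after the values were seen, were all below 0, with a median of -0.38; of all 515 mouse genes this bright, 55.1% were below 0, with a median of -0.04.

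In rats the differences between mutant and WT were smaller. Of the 23 genes measured, 1 was at least 2-fold higher in Lepmkyo/Lepmkyo given saline than in WT (Serpina5), beside 2.99% of all 9817 genes, and 0 were 2-fold lower, beside 1.45%. Ratios were above 0 for 14 genes and below 0 for 9, with a median of 0.10; over all genes 55.2% were above 0, 44.7% below it, and the median was 0.04. At 1.5-fold, 4 Serpin genes were higher, beside 10.2% of all genes, and 2 lower, beside 5.92%. The secreted genes split evenly, with 9 of 16 below 0 and a median of -0.05, while all 5 measured clade B genes were above 0, with a median of 0.39.

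**Figure D3:**
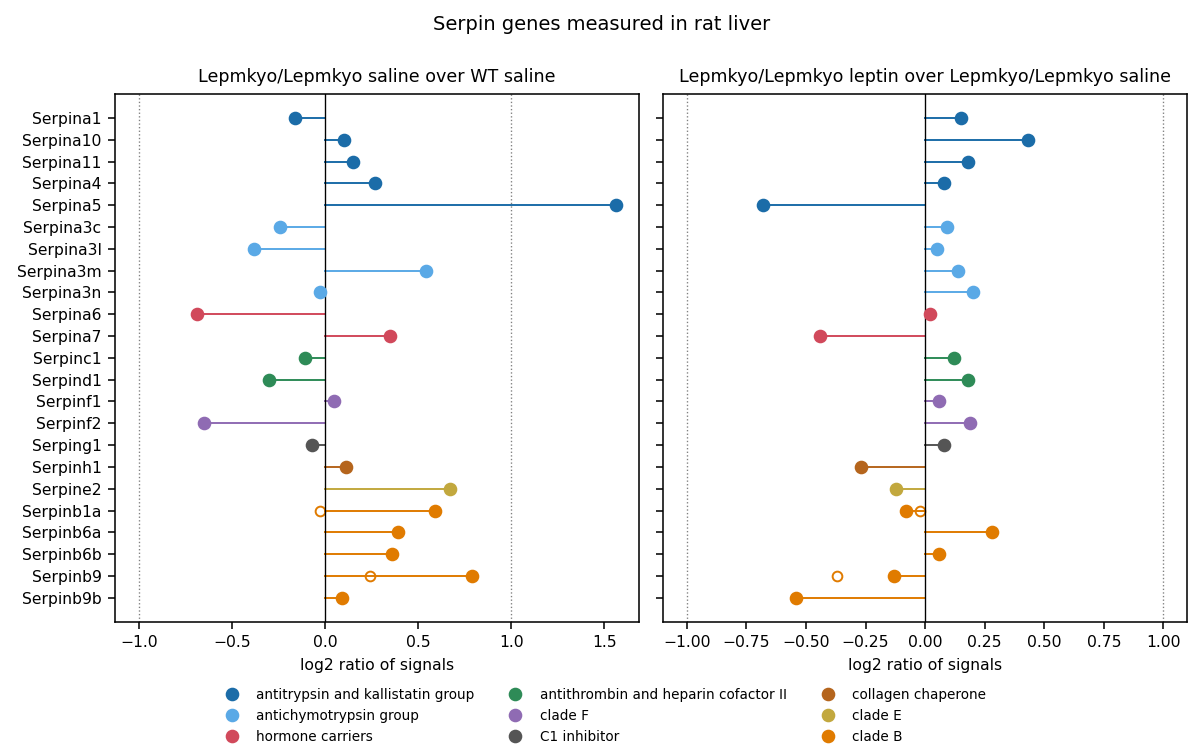
Log2 ratios of MAS5 signals for the 23 Serpin genes measured in rat liver, for Lepmkyo/Lepmkyo saline over WT saline (left) and Lepmkyo/Lepmkyo leptin over Lepmkyo/Lepmkyo saline (right, on its own scale). Filled points are the brightest probe set of a gene, open points its other probe sets, colours the roles, and dotted lines 2-fold; Serpina5 at 1.56 is the only filled point past 2-fold on the left, and on the right none is.

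In the antitrypsin and kallistatin group of rats, Serpina5 alone differed by 2-fold. Serpina5, protein C inhibitor, read 188 in Lepmkyo/Lepmkyo given leptin, 302 in Lepmkyo/Lepmkyo given saline and 102 in WT, 2.95-fold higher in the saline-treated mutant (log2 ratio 1.56). The WT signal lies close to the floor of 97.0, so the size of this ratio rests on a dim value. The antitrypsin Serpina1 read 47168, 42459 and 47468 (log2 ratio -0.16), and Serpina4, kallistatin, an inhibitor of tissue kallikrein, 33793, 32004 and 26571 (0.27). Serpina10 read 16969, 12562 and 11684 (0.10), and Serpina11 8741, 7723 and 6953 (0.15). All 4 lie within the spread between probe sets.

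The antichymotrypsin group is expanded in rodents, and its 4 measured rat genes did not go together. Serpina3m read 19969.6 in Lepmkyo/Lepmkyo given leptin, 18101 in Lepmkyo/Lepmkyo given saline and 12463 in WT, a log2 ratio of 0.54 for the saline-treated mutant over WT. Serpina3l read 30675, 29629 and 38682 (-0.38), and Serpina3c 33091, 31178 and 36848 (-0.24). Serpina3m was thus higher in both mutants than in WT, and Serpina3l and Serpina3c were lower in both. Serpina3n read 30316, 26341 and 26916 (-0.03). Genes of this group are close copies, and the array annotation does not show how far their probes bind each other's transcripts.

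Of the hormone carriers, corticosteroid-binding globulin was the lower one in rats. Serpina6 read 17809.9 in Lepmkyo/Lepmkyo given leptin, 17613 in Lepmkyo/Lepmkyo given saline and 28324 in WT, 1.61-fold lower in the saline-treated mutant (log2 ratio -0.69). Serpina7 read 1211, 1646 and 1292 (log2 ratio 0.35). Of the 12 rat genes related to these hormones (receptors, targets, converting enzymes and the carrier Ttr), 6 were above and 6 below 0, with a median of -0.01. Tat, tyrosine aminotransferase, a glucocorticoid target, had the lowest ratio, -2.80, and Fkbp5 the highest, 1.53.

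Alpha-2-antiplasmin was lower in mutant rats too. Serpinf2 read 6331 in Lepmkyo/Lepmkyo given leptin, 5551 in Lepmkyo/Lepmkyo given saline and 8687 in WT, 1.56-fold lower in the saline-treated mutant (log2 ratio -0.65). The other inhibitors of this kind were close to WT. Serpind1 read 20010.2, 17722 and 21823 (-0.30), Serpinc1 37853, 34901 and 37573 (-0.11), and Serping1 25097, 23750.2 and 24999 (-0.07). Serpinf1 read 25502, 24473 and 23721 (0.05). Of 11 measured targets in clotting and fibrinolysis, 5 were above 0 and 6 below, with a median of -0.04 and Plat, at 2.02, highest; of 5 complement genes, 3 were above 0, with a median of 0.03.

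All 5 clade B genes and Serpine2, the 1 clade E gene measured, had higher signals in the saline-treated mutant rat than in WT. Serpinb9 read 971 in Lepmkyo/Lepmkyo given leptin, 1065 in Lepmkyo/Lepmkyo given saline and 616 in WT, 1.73-fold higher in the saline-treated mutant (log2 ratio 0.79; 0.24 on another probe set). Serpine2, protease nexin, an inhibitor of thrombin and plasminogen activators, read 498, 539.9 and 339, 1.59-fold higher (log2 ratio 0.67). Serpinb1a read 282, 298 and 198 (0.59; -0.03 on another probe set). The rest of clade B was within 1.5-fold. Serpinb6a read 443, 365 and 279 (log2 ratio 0.39), Serpinb6b 183, 175 and 137 (0.36), and Serpinb9b 1183, 1723 and 1615 (0.09). Serpinh1 read 396, 476 and 441 (0.11). Of 14 collagen genes and enzymes, 11 were above 0, 4 of them at least 2-fold, with a median of 0.52 and Col3a1 at 1.96. The enzymes were split, with P4ha1 at -0.92, Plod1 at -0.22, P4ha2 at -0.04, P4hb at 0.19 and Plod2 at 0.94 or above. The WT signal of Plod2 was under the floor, so its ratio could only be above 0.

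The medians of the hepatocyte, macrophage and stellate cell lists lay on the same side of 0 in rats as in mice, but those of some shorter lists did not. For saline-treated mutant over WT, the 3 cholangiocyte markers measured had a median of -0.90 in mice and of 0.74 in rats. In mice all 3 were under the floor in that mutant. Medians of the platelet list were 0.24 in mice and -0.04 in rats, of the keratinocyte list 0.02 and -0.61, and of the pancreas list -0.05 and 0.39. All 12 hepatocyte markers measured were below 0 in the saline-treated mutant against WT, with a median of -0.15 and sums of 374328 in Lepmkyo/Lepmkyo given leptin, 341036 in Lepmkyo/Lepmkyo given saline and 390417 in WT. Of 11 macrophage markers, 9 were above 0, with a median of 0.23 and sums of 24066, 23472 and 17657. Of 11 stellate cell and fibroblast markers, 10 were above 0, 5 of them at least 2-fold, with a median of 0.92 and sums of 12126, 11989 and 4465. Timp1 and Pdgfrb were under the floor in WT, so their ratios could only be above 0. Acta2, under it in the saline-treated mutant, could only be below 0. Ms4a7 of the macrophage list was under the floor, and so were Camp and Csf3r of the neutrophil list, which summed to 472, 352 and 218. Their part in the serpin values was not tested.

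**Figure D4:**
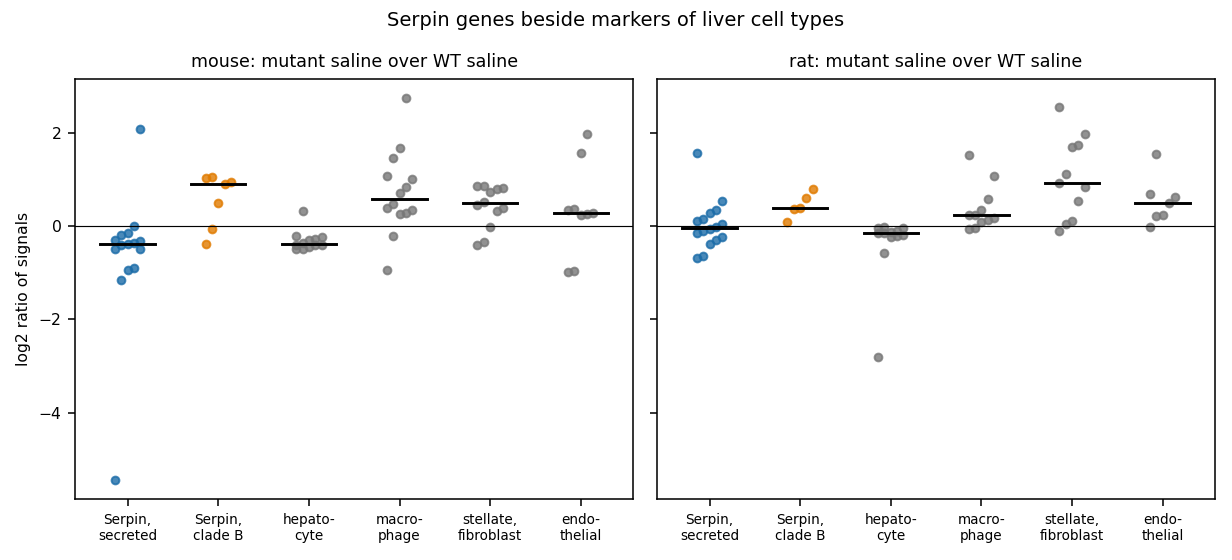
Log2 ratios of MAS5 signals for saline-treated mutant over saline-treated WT liver in mice (left) and rats (right). Each point is 1 measured gene and each black line the median of a list: secreted Serpin genes, clade B Serpin genes, and markers of hepatocytes, macrophages, stellate cells with fibroblasts, and endothelial cells. In mice the medians of the secreted serpins (-0.39) and the hepatocyte markers (-0.38) lie side by side below 0, and those of clade B (0.90) and the macrophage markers (0.58) above it.

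After leptin, no Serpin gene differed by 2-fold between mutants given leptin and mutants given saline in either species. In mice 0 of 21 measured genes were 2-fold higher, beside 0.182% of all 11536 genes, and 0 were 2-fold lower, beside 0.243%. In rats 0 of 23 were 2-fold higher, beside 0.237% of 9705 genes, and 0 were 2-fold lower, beside 0.278%. At 1.5-fold, 1 gene was higher and 1 lower in mice, beside 2.18% and 2.21% of all genes, and in rats 0 were higher and 1 lower, beside 2.1% and 2.59%. At these shares of all genes, a count of 0 among so few members is near the background. The leptin comparisons share the saline-treated mutant arrays with those of mutant over WT.

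In mice the largest leptin ratios belonged to Serpina4-ps1 and Serpinb6b. Serpina4-ps1 was 1.91-fold higher in Lepob/Lepob given leptin than in Lepob/Lepob given saline (log2 ratio 0.94), and its other probe sets gave 0.76 and 1.06. The leptin-treated signal, 548, was still far below 12475 in WT. Serpinb6b was 1.59-fold lower after leptin (log2 ratio -0.67; 225 with leptin and 358 with saline). The next was Serpina10, at a log2 ratio of 0.55.

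Of the 14 secreted mouse genes measured, 11 were above 0 after leptin, with a median of 0.07, and of the 6 clade B genes 0 were above and 6 below, with a median of -0.20; over all genes 49.4% were above 0 and 50.5% below it. Apart from Serpina4-ps1, Serpina10 and Serpinb6b, ratios ran from -0.27 (Serpinb9) to 0.25 (Serpina7), within the spread between probe sets, which was 0.29 for the 7 Serpin genes with several probe sets. The second probe set of Serpinb8 gave 0.73 after leptin against -0.17 on the first, so this gene has no clear direction. Hepatocyte markers were above 0 for 9 of 12, with a median of 0.02, macrophage markers for 5 of 14, with a median of -0.15, and neutrophil markers for 4 of 5, with a median of 1.16. Their part in the serpin values was not tested.

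In rats, Serpina5 was 1.61-fold lower in Lepmkyo/Lepmkyo given leptin than in Lepmkyo/Lepmkyo given saline (log2 ratio -0.68; 188 and 302), both above the WT signal of 102. Serpinb9b had a log2 ratio of -0.54, Serpina7 of -0.44 and Serpina10 of 0.43. The other 19 ratios lay between -0.27 (Serpinh1) and 0.28 (Serpinb6a), close to the spread between probe sets over all genes, 0.25. For the 2 rat Serpin genes with several measured probe sets this spread was smaller, 0.12. Of the 16 secreted genes, 14 were above 0, with a median of 0.10, beside 52.0% of all genes above 0 and 47.9% below it, but after quantile normalization 8 of 16 were. All 12 hepatocyte markers were above 0 as well, with a median of 0.12, and so were 78.7% of the 414 rat genes with a mean signal of at least 10000, with a median of 0.07. Of 16 acute phase proteins and genes of the STAT3 pathway measured, 15 were above 0, with a median of 0.18, and A2m, an acute phase inhibitor of proteases in rats that is no serpin, led at 2.76.

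Against WT, the mutants given leptin looked much like those given saline, with which they share the WT array. In mice 2 of 23 genes were at least 2-fold higher in Lepob/Lepob given leptin than in WT given saline, beside 3.98% of all genes: Serpina7, 5.01-fold (log2 ratio 2.32), and Serpinb1a, 2.01-fold (1.00; -0.06 on its other probe set). Serpina4-ps1, at -4.51, and Serpinf2, at -1.06, were at least 2-fold lower, beside 3.46%. Serpinb6a was just under 2-fold, at 0.99, and Serpina12 at -0.94. In rats 0 of 23 were 2-fold higher, beside 2.83%, and 0 were 2-fold lower, beside 1.61%, with Serpina5 at 0.88, Serpina3m at 0.68 and Serpina6 at -0.67. Ratios of leptin-treated mutant over WT were above 0 for 7 of 23 mouse genes, beside 47.4% of all genes, and below 0 for 16, beside 52.5%. Serpina9 and Serpinb9b, at the floor in WT alone, could again only be below 0. In rats 14 of 23 were above 0, beside 56.5%, and 9 below, beside 43.4%. At 1.5-fold, 4 mouse genes were higher, beside 11.4%, and 4 lower, beside 11.7%, and in rats 4 were higher, beside 10.3%, and 1 lower, beside 6.85%. Serpina10 was at 0.07 in mice and 0.54 in rats.

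Between species, ratios of genes with the same symbol were set side by side; they come from different probe sets, and the same symbol need not mean a one-to-one ortholog among Serpina3 and Serpinb genes. Of the 16 genes measured in both, 4 were higher in the saline-treated mutant of each species (Serpina7, Serpinb1a, Serpinb6a, Serpinb6b), beside 31.3% of all 8303 shared genes, and 5 were lower in each (Serpina3n, Serpinc1, Serpind1, Serpinf2, Serping1), beside 26.6%. Past 1.5-fold on the same side in both were 2 of the 16, beside 349 of all 8303 shared genes (4.2%), and nothing particular to the family is read from so small a count. They were Serpinf2, at -1.15 in mice and -0.65 in rats, and Serpinb1a, at 1.04 and 0.59, with 0.46 and -0.03 on its other probe sets. Lower in mutant mice and higher in mutant rats were 6 genes, beside 23.9%, among them Serpina11, at -0.94 and 0.15, and Serpinb9, at -0.07 and 0.79. Serpina6 was at 0.00 in mice and -0.69 in rats. No Serpin gene was past 1.5-fold in opposite directions. Serpina7 had the widest gap, at 2.07 in mice and 0.35 in rats.

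After leptin, 8 of 15 shared genes were higher in both species, beside 27.7% of all 8213 shared genes, and 3 were lower in both, beside 26.1%. That background is not matched for brightness. Among genes with a mean signal of at least 10000, 62.9% were above 0 in mice and 78.7% in rats. Several of the 8 had small ratios, such as Serpinf1, at 0.05 in mice and 0.06 in rats. Serpina10 had the highest ratio of the 15 in each species, 0.55 in mice and 0.43 in rats. Serpina7 was at 0.25 in mice and -0.44 in rats, and Serpinb6b at -0.67 and 0.06. The differences between the species were not tested, since each rests on single arrays.

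**Figure D5:**
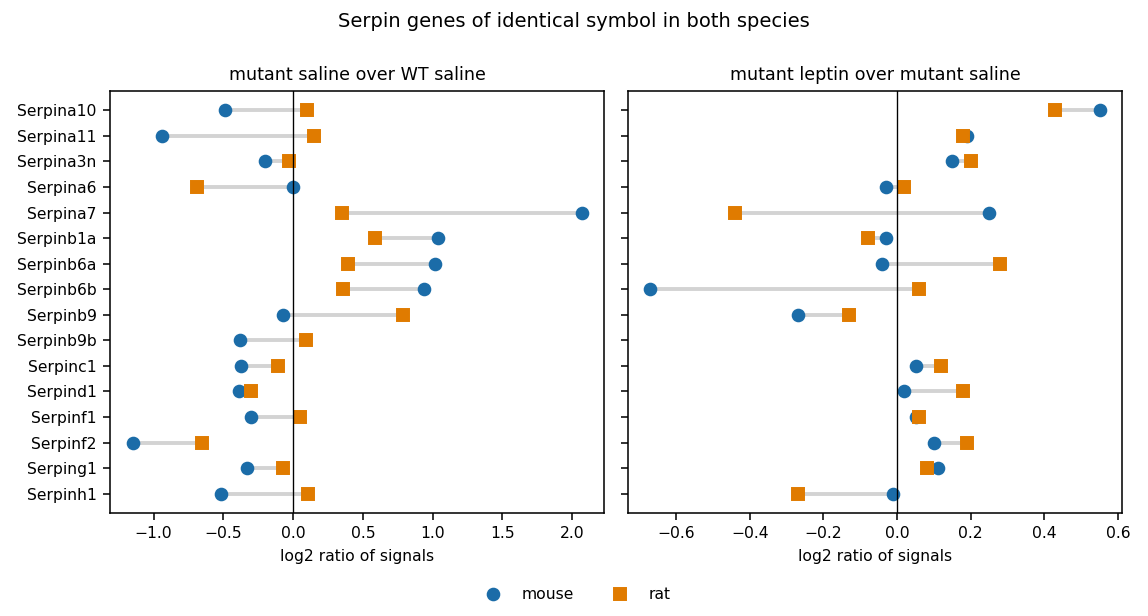
Log2 ratios of MAS5 signals for Serpin genes with the same symbol in mice (circles) and rats (squares), for mutant saline over WT saline (left, 16 genes) and mutant leptin over mutant saline (right, 15 genes, without Serpinb9b, which was under the floor on both mutant mouse arrays). Grey bars join the species; Serpinf2 and Serpinb1a lie on the same side of 0 by at least 1.5-fold in both on the left, as do 4.2% of all shared genes, and Serpina10 has the highest ratio of both species on the right.

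Receptors and cofactors of serpins had medians close to 0. LRP1, which clears complexes of serpins with proteases, had a log2 ratio of -0.81 for Lrp1 in saline-treated mutant mice over WT and of -0.35 in rats, and of 0.43 and 0.25 after leptin. Of the 9 genes of this list measured in mice, 4 were above 0 in the saline-treated mutant against WT, with a median of -0.19, and of the 7 in rats 3, with a median of -0.09. After leptin 8 of 9 were above 0 in mice, with a median of 0.05, and 3 of 7 in rats, with a median of -0.02.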

How the data were processed

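Liver RNA of 6 groups, with 1 array each, was hybridised to short-oligonucleotide arrays, per the labels' protocols. Per the submitters' processing notes, the authors computed the deposited signal intensities, which are linear, with MAS5 (version not given in the sources used here); dim MAS5 signals vary much. The platform annotation gave the gene symbols: among mouse probe sets, 34945 had 1 symbol (34741 updated through the gene identifier to GRCm38.p6, 204 not), 932 several and 9160 none; in rats 20826, 436 and 9780, as annotated. Only probe sets with exactly 1 symbol were used; 3 with more than 1 named Serpin genes.

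The floor was the 50th percentile of all values of a platform. The probe set of highest mean signal stood for a gene, which entered a comparison if 1 of its 2 arrays was at the floor or above. Signals below were set to it, and log2 ratios were called at 2-fold over all genes; where an array lay below it, the ratio bounds the difference. No test was run, as the number of arrays limits the precision. Members and gene lists were chosen with earlier results of these data known. Named were all measured Serpin genes and up to 3 genes of largest ratio per list, with further genes where a list was mixed. The secreted pool and the minimum signal of 10000 were added after the values were seen. Promoters were searched over 250 bases, taking the most upstream window of a gene; alignments used Biopython 1.88. Calculations ran in Python 3.11.15 with pandas 2.3.3 and numpy 2.4.6 and were tested on simulated data. Alternatives were quantile normalization, median centring, floors at the 25th and 75th percentiles or added to every value, the median over probe sets, dropping the probe sets marked as able to bind more than 1 transcript, and a 1.5-fold call.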

Additional observations from a re-analysis of the deposited data

How the results depend on the processing

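All counts are of Serpin genes, and not every shift is listed. In mice, mutant saline over WT gave 5 genes higher after quantile normalization, 5 after median centring, 1 with the floor added and 5 at 1.5-fold, against 3 as reported, and 1 lower after median centring, 5 with the floor at the 25th percentile and 4 at 1.5-fold, against 2. Mutant leptin over WT gave 1 higher with the floor at the 75th percentile, with the floor added and with the median over probe sets, and 4 at 1.5-fold, against 2, and 1 lower after median centring, 5 with the lower floor and 4 at 1.5-fold, against 2. Leptin over saline gave 1 lower with the lower floor, and 1 lower and 1 higher at 1.5-fold, against 0. In rats, mutant saline over WT gave 2 higher with the lower floor, 0 with the higher floor and 4 at 1.5-fold, against 1, and 1 lower with the lower floor and 2 at 1.5-fold, against 0. Leptin over saline gave 2 lower with the lower floor and 1 at 1.5-fold, against 0, and mutant leptin over WT 1 lower with the lower floor and, at 1.5-fold, 4 higher and 1 lower, against 0. Serpina12 in mice, for example, was 2-fold lower in 1 of 7 alternatives for mutant saline over WT, with a lowest log2 ratio of -1.2. For mutant leptin over WT it was so in 2 of 7, with a lowest of -1.22. The cause of these shifts was not tested.

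Serpina4-ps1 and Serpina7 stayed past 2-fold between mutant mice and WT in all 7 alternatives, at log2 ratios of -5.45 to -4.48 and 2.01 to 2.33; Serpinb6a (0.94 to 1.28) and Serpinf2 (-1.17 to -0.90) did in 6 of 7 and Serpinb1a (0.75 to 1.29) in 4. Serpina5 in rats ranged from 1.00 to 1.60. Of 914 values of single genes under alternatives, 9 moved by more than the spread between probe sets. Median ratios over the measured Serpin genes ranged from -0.37 to -0.08 for mutant over WT in mice and from 0.05 to 0.15 in rats. No paired analysis was possible because each group holds 1 array, and for the same reason no replicate could be left out. Dim genes are limited by the floor: with it at the 25th percentile, 8 of 15 mouse clade B genes were above 0 for mutant over WT, against 5 of 7.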

Other observations

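Of the mouse probe sets annotated to several Serpin genes, and so left out above, those of the antitrypsin copies did not give the same ratio. The probe set of Serpina1b, Serpina1c and Serpina1e read 8318 in Lepob/Lepob given leptin, 8078 in Lepob/Lepob given saline and 22553 in WT, 2.79-fold lower in the saline-treated mutant than in WT (log2 ratio -1.48). That of Serpina1a and Serpina1d read 45023, 42834 and 58214, 1.36-fold lower (log2 ratio -0.44), close to the probe set of Serpina1c alone, at -0.49. After leptin the log2 ratios were 0.04 and 0.07. The probe set of Serpinb9e, Serpinb9f, Serpinb9g and Serpinb9h was under the floor, at 50.4, 40.0 and 27.1 in the same order of groups.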
